A study of Homo sapiens with 18 samples.

Results

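The 10 genes described here belong to the STAT5, PIM and SOCS branch of cytokine signalling: STAT5A, STAT5B, PIM1, PIM2, PIM3, CISH, SOCS1, SOCS2, SOCS3 and BCL6. They were taken by gene symbol, whatever their values, and all 10 were listed in both cell lines, among 17110 genes for HL-60, 17475 for MOLM-13 and 15517 in both. RNA was measured by stranded total RNA sequencing in 2 human acute myeloid leukaemia lines, each kept for 48 h with solvent (DMSO, dimethyl sulfoxide), decitabine (DAC) or NTX-301. There were 6 groups of 3 replicates, or 18 samples. HL-60 is a promyelocytic line. MOLM-13 is a monocytic line that carries a KMT2A fusion and an internal tandem duplication of the receptor kinase gene FLT3 (FLT3-ITD). Decitabine is a deoxycytidine analogue used in leukaemia that inhibits DNA methylation, and NTX-301 is known here by its code name. The stated concentrations were 30 nM (HL-60) and 15 nM (MOLM-13), in wording that may cover both drugs or DAC alone, so line and dose cannot be told apart. Each line stands for 1 culture model, and nothing in the labels says that the replicates came from separate cultures, so p-values measure the spread between these samples, which may be technical.

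A cytokine receptor, or a mutant FLT3 that signals without its ligand, leads to phosphorylation of STAT5A and STAT5B, which pair up, enter the nucleus and bind DNA at a palindrome. Among the genes they switch on are CISH and the SOCS genes, whose products dampen the same receptors and so close a feedback loop, and the PIM genes, whose serine/threonine kinases favour survival and growth of leukaemia cells. BCL6 encodes a transcriptional repressor that recognises a DNA motif overlapping that of STAT5. The files hold RNA levels, so they show the amount of STAT5 message and of its target messages, and not STAT5 phosphorylation.

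The palindrome that STAT proteins recognise is TTCNNNGAA, where N is any base, and it reads the same on both strands. It was searched in the RefSeq promoter windows of GRCh38.p14, which run from 250 bases before an annotated transcription start to 50 bases after it. For 9 of the 10 genes there were 13 such windows; SOCS2 had no entry. The stretches below hold the matches of the 2 genes with any, in capitals, 5′ to 3′ along the gene. The CISH stretch is chr3:50611775-50612024 on the minus strand, the 250 bases before its start. The BCL6 stretch is chr3:187745439-187745518 on the minus strand, from 50 bases before the start to 30 after it.
CISH: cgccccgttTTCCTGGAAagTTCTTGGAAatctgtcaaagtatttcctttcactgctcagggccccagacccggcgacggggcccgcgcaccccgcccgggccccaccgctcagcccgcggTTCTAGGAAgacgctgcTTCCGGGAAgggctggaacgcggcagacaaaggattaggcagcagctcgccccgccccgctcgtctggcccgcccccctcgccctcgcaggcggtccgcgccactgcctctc
BCL6: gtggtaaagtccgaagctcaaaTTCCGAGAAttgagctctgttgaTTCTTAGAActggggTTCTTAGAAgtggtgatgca

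The CISH window held 4 matches in 2 close pairs, with first bases at −241 and −230 and at −129 and −112 from the start. The first BCL6 window also held 4 matches, 3 of them printed above and the last, TTCTAGGAA, beginning at base 37 of the transcript. Of 34943 windows in the table, 2675 (7.66%) held at least 1 match and 7 (0.02%) held at least 4. The windows of STAT5A, STAT5B, PIM1, PIM2, PIM3, SOCS1 and SOCS3, and the other BCL6 window, held none, which says only that these letters are not in these windows. CpG dinucleotides, the sites that DNA methyltransferases modify, ranged from 3 to 56 per window, with 55 for STAT5B, 56 for PIM3, 39 for PIM1, 33 for CISH and 33 for SOCS1. The median over all windows was 14. STAT5A had 3, 5 and 37 in its 3 windows, SOCS3 had 17 and 34, PIM2 had 23 and BCL6 had 12 and 7. A match or a CpG count is a description of the reference sequence, and methylation was not measured in these samples.

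**Figure D1:**
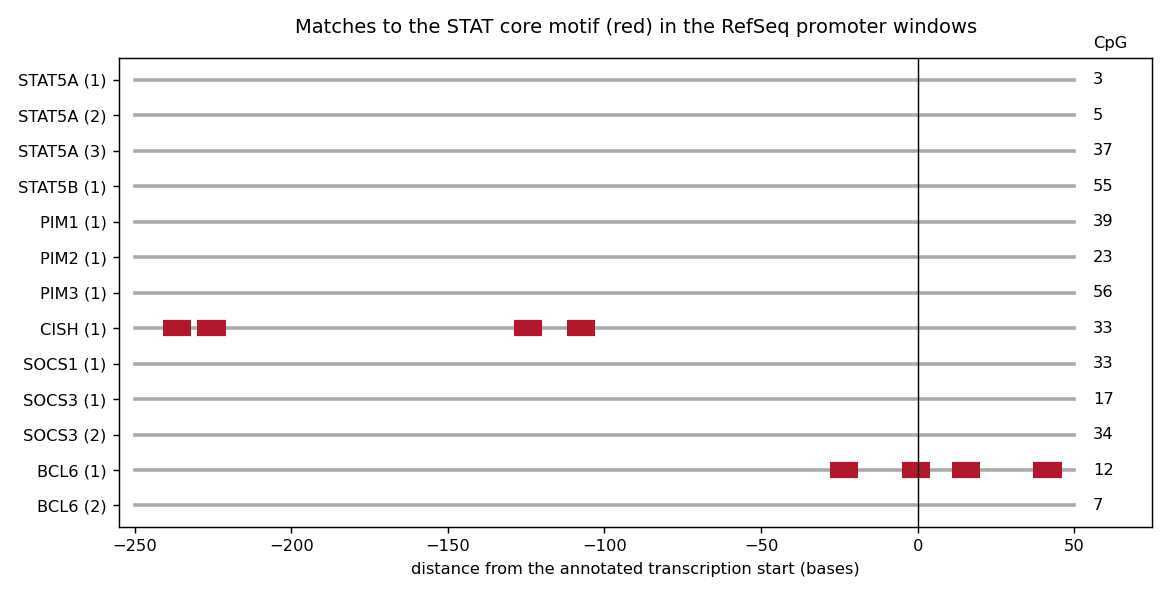
Positions of matches to the STAT core motif (red boxes) in the 13 RefSeq promoter windows, with the distance from the annotated transcription start in bases on the x axis and 1 line per window (window number in brackets). Numbers at the right count CpG dinucleotides. Matches appear in 2 windows, 4 in that of CISH and 4 in the first of BCL6.

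The deposited values are on a log2 scale and are compressed for low genes. Over the 9 HL-60 samples, the median range was 0.066 for genes averaging 3 to 5 and 0.123 for those averaging 5 to 6. It was widest, at 0.234, for genes averaging 8 to 10, and was 0.165 for those averaging 12 to 14. The MOLM-13 figures were 0.102, 0.184, 0.289 and 0.217. Read depth is unknown. Replicates lay close, with a median absolute log2 difference of 0.028 to 0.037 between samples of a group in HL-60 and 0.037 to 0.051 in MOLM-13, and no library stood apart. All 8 granulocytic markers were listed in both lines, with MPO at a mean of 18.71 in HL-60 with DMSO. Of the KMT2A programme genes HOXA9, HOXA10, MEIS1, PBX3 and FLT3, all 5 were listed in MOLM-13, and HOXA9 and MEIS1 were not listed in HL-60. Of 9 monocytic markers, 8 were listed in MOLM-13 and 6 in HL-60, and CD14 in neither. Of 13 markers of other lineages, 5 were listed in MOLM-13 and 2 in HL-60, MS4A1 and CD3E in neither.

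In the solvent controls the 2 lines held these messages at different values. SOCS2 stood at 13.26 ± 0.014 in MOLM-13 and 5.11 ± 0.028 in HL-60 (log2 value, SD, n = 3), SOCS3 at 10.84 ± 0.30 and 4.98 ± 0.036, and PIM1 at 12.27 ± 0.076 and 7.51 ± 0.032. STAT5A stood at 11.99 ± 0.033 and 8.29 ± 0.015. CISH was at 11.15 and 9.001, SOCS1 at 7.24 and 5.29, STAT5B at 12.39 and 11.57, PIM2 at 11.27 and 10.84 and BCL6 at 8.87 and 8.73. PIM3 had the lower value in MOLM-13, 11.14 against 12.47. The lines were deposited as separate sets that appear to be normalized apart, with medians over all genes of 9.52 to 9.56 in HL-60 and 9.79 to 9.84 in MOLM-13, so these levels are set side by side without a test.

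**Figure D2:**
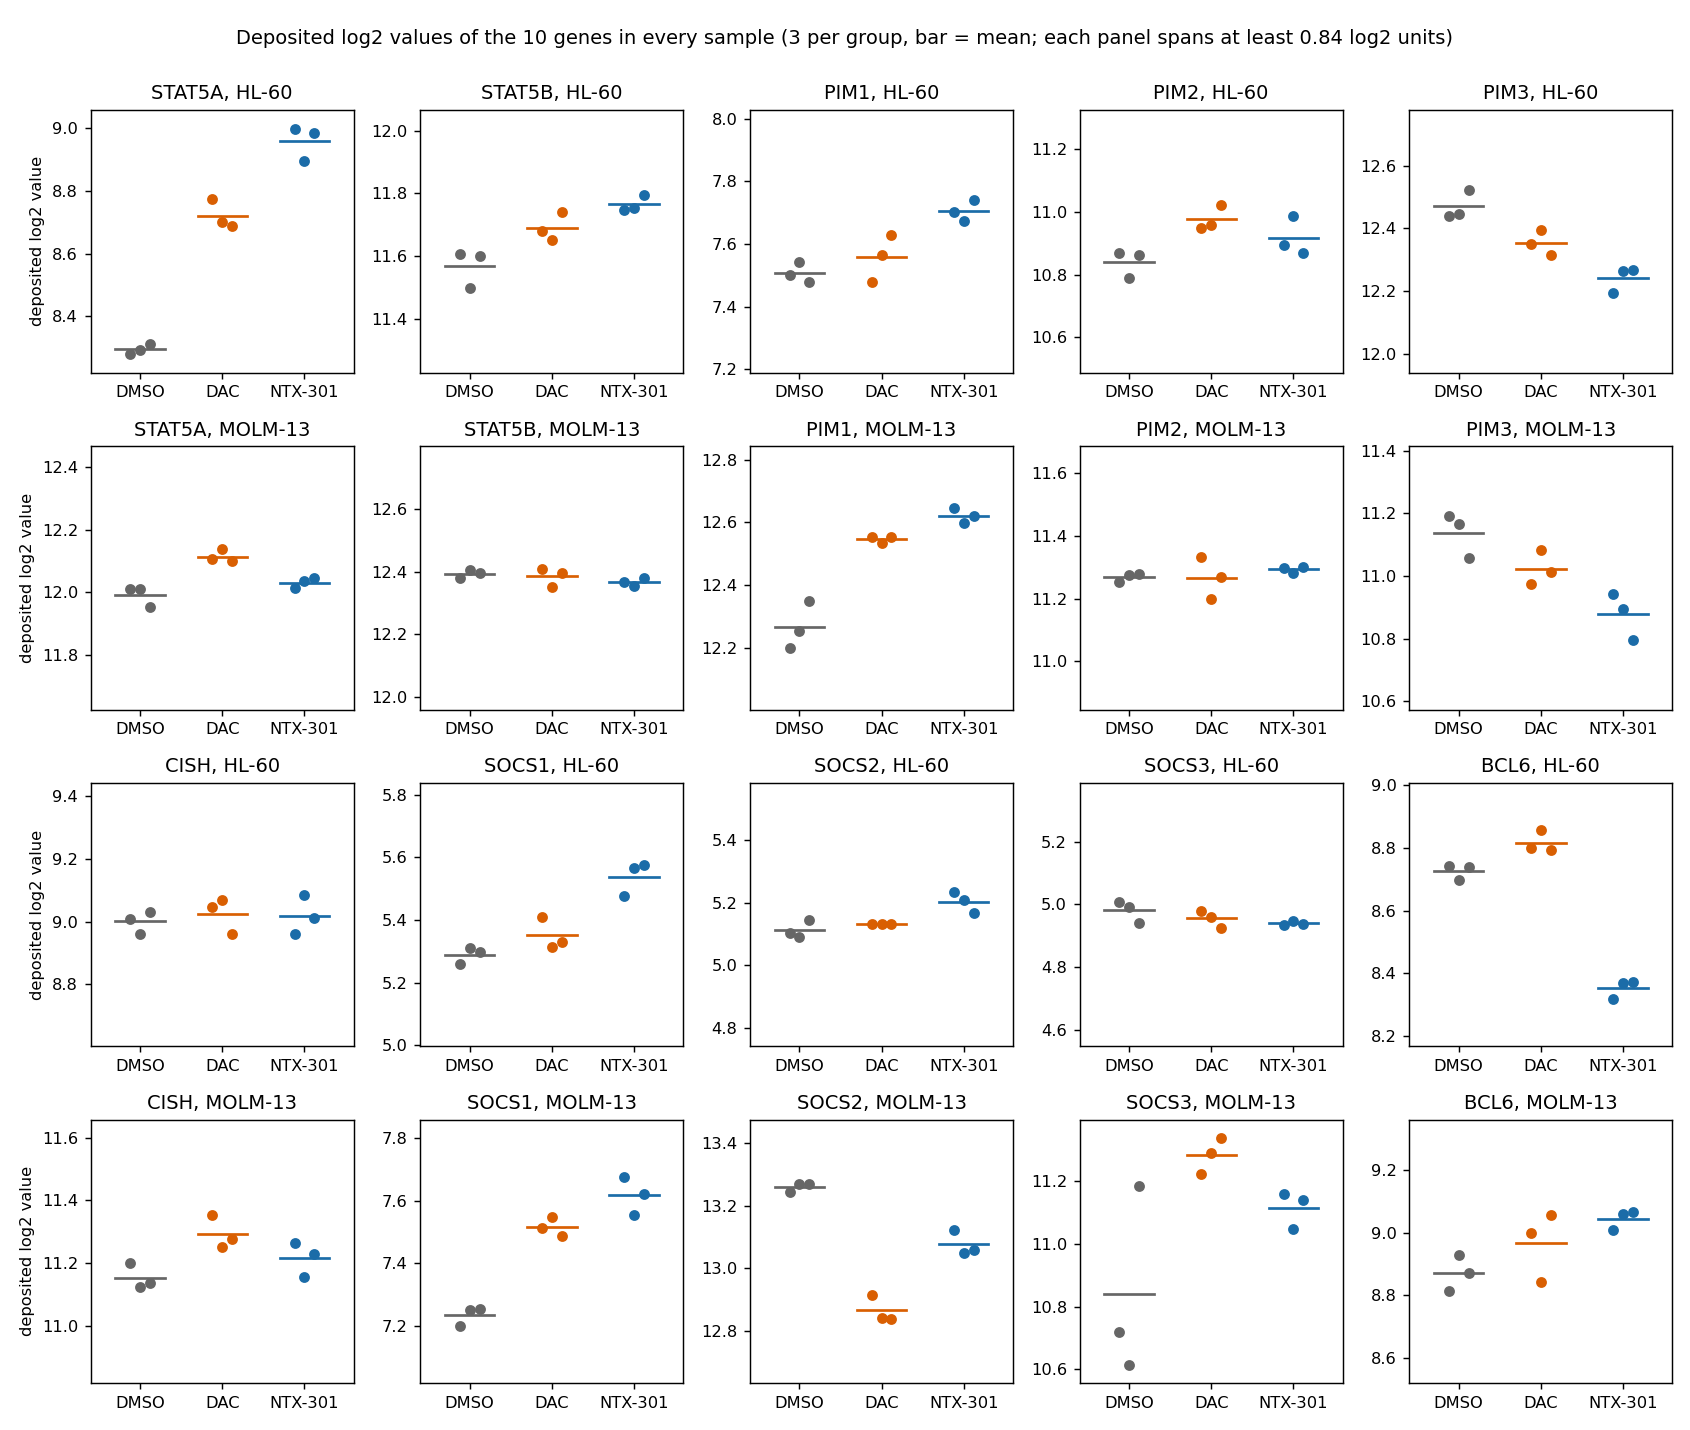
Deposited log2 value (y axis) of each of the 10 genes in every sample, by line and treatment (x axis), with 3 points per group and a bar at the group mean. Each panel has its own y range. STAT5A in HL-60 climbs from about 8.29 with DMSO to 8.96 with NTX-301, BCL6 drops in HL-60 with NTX-301, and SOCS2 in MOLM-13 lies lowest with DAC.

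In HL-60, STAT5A had the lowest adjusted p of the 10 genes with either drug. STAT5A was 8.28, 8.29 and 8.31 with DMSO, 8.77, 8.70 and 8.69 with DAC, and 8.999, 8.90 and 8.99 with NTX-301. The 3 groups did not overlap and lay in the order DMSO, DAC, NTX-301. DAC raised it by 0.43 (SE 0.040, limma adjusted p 4.27e-06), a ratio of 1.34. NTX-301 raised it by 0.67 (SE 0.040, adjusted p 2.18e-08), a ratio of 1.59. NTX-301 stood above DAC by 0.24 (adjusted p 0.000408). STAT5B, the close paralogue that lies beside STAT5A, rose by 0.12 with DAC (SE 0.033, adjusted p 0.0159) and by 0.20 under NTX-301 (adjusted p 0.000285). Its values were 11.61, 11.50 and 11.60 with DMSO, 11.68, 11.65 and 11.74 with DAC, and 11.75, 11.75 and 11.79 with NTX-301, so that each drug group lay above DMSO. The call with DAC was lost without DMSO replicate 2 (0.087) or DAC replicate 3 (0.096). Between the drugs STAT5B was not called (0.076, 95% interval 0.0049 to 0.15, adjusted p 0.101).

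The STAT5A and STAT5B transcripts of GENCODE 29 share 507 stretches of 50 bases, 10.3% of those of STAT5A and 9.88% of those of STAT5B, so some reads could not be placed by sequence alone. Within each sample, STAT5A minus STAT5B on the log2 scale was −3.32, −3.21 and −3.29 with DMSO, −2.91, −2.95 and −3.05 with DAC and −2.75, −2.86 and −2.81 with NTX-301 in HL-60. In MOLM-13 it was −0.37, −0.39 and −0.44 with DMSO, −0.30, −0.21 and −0.30 with DAC and −0.35, −0.32 and −0.33 with NTX-301. These differences do not correct for transcript length and serve only to compare treatments: in both lines every drug sample lay nearer to 0 than every DMSO sample. For NTX-301 in MOLM-13 the nearest samples were barely apart (−0.354 against −0.366 with DMSO), and neither gene was called there. In that contrast the groups did not overlap for 55.8% of all genes. The differences between the 2 genes were not tested.

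BCL6 fell in HL-60 with NTX-301 and was not called with DAC. Its values were 8.74, 8.70 and 8.74 with DMSO, 8.80, 8.86 and 8.79 with DAC, and 8.32, 8.37 and 8.37 with NTX-301. All 3 NTX-301 samples lay below all others. BCL6 fell by 0.37 with NTX-301 (SE 0.036, limma adjusted p 2.02e-06) and NTX-301 against DAC gave −0.46 (adjusted p 5.06e-07). With DAC the value against DMSO was 0.090 (adjusted p 0.0880), which was called when limma was run without its mean-variance trend (adjusted p 0.0280).

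Among the PIM kinases in HL-60, PIM1 rose and PIM3 fell with NTX-301. PIM1, a known STAT5 target, was 7.502, 7.54 and 7.48 with DMSO, 7.48, 7.57 and 7.63 with DAC and 7.70, 7.67 and 7.74 with NTX-301. It rose with NTX-301 by 0.20 (SE 0.043, adjusted p 0.00227), or by 0.13 after quantile normalization, while the DAC samples overlapped DMSO (0.049, adjusted p 0.454). PIM3 was 12.44, 12.45 and 12.52 with DMSO, 12.35, 12.40 and 12.31 with DAC and 12.19, 12.26 and 12.27 with NTX-301, in 3 groups that did not overlap. It fell by 0.12 with DAC (SE 0.030, adjusted p 0.0126), a call lost without DMSO replicate 3 (−0.090) or DAC replicate 3 (−0.098), and by 0.23 with NTX-301 (adjusted p 4.03e-05). Between the drugs, NTX-301 stood 0.15 above DAC for PIM1 (adjusted p 0.0178), a call lost without DAC replicate 1 (0.11) or NTX-301 replicate 3 (0.13). For PIM3 it stood lower (−0.11, adjusted p 0.0127), a call lost without DAC replicate 2 (−0.090) or NTX-301 replicate 1 (−0.088). PIM2 rose by 0.14 with DAC (adjusted p 0.0130), a call lost without DMSO replicate 2 (0.11) or DAC replicate 3 (0.11). With NTX-301 it was at 0.077 (adjusted p 0.110).

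Of the feedback inhibitors in HL-60, SOCS1, which blocks JAK kinases directly, was 5.26, 5.31 and 5.30 with DMSO, 5.41, 5.31 and 5.33 with DAC and 5.48, 5.57 and 5.57 with NTX-301. It rose with NTX-301 by 0.25 (SE 0.032, adjusted p 3.23e-05) and stood above DAC by 0.19 (adjusted p 0.000557). With DAC it was at 0.061 (adjusted p 0.194). RMI2, which overlaps SOCS1 on the other strand without shared exons, stood higher, at 9.79 with DMSO. It rose with NTX-301 by 0.14 (limma adjusted p 0.0146), and whether its reads were counted for SOCS1 was not tested. SOCS2, a regulator of growth hormone and FLT3 signalling, rose with NTX-301 by 0.091 (adjusted p 0.00696), from a range of 5.09 to 5.14 to one of 5.17 to 5.23, but not after centring (0.059) or quantile normalization (0.060). Against DAC it was higher by 0.071 (adjusted p 0.0337), a call lost in 8 alternatives: both scalings (0.037 and 0.060), the replicate block (adjusted p 0.0502), and without any 1 of the DAC replicates (0.071 to 0.072), NTX-301 replicate 1 (0.055) or NTX-301 replicate 2 (0.069). SOCS3 lay between 4.93 and 5.01 in the 9 samples and was not called with either drug (−0.026 and −0.041), though the NTX-301 value was called after centring (−0.073) and quantile normalization (−0.064). CISH, which like BCL6 had a window with 4 motif matches, was 9.01, 8.96 and 9.03 with DMSO, 9.05, 9.07 and 8.96 with DAC and 8.96, 9.08 and 9.01 with NTX-301. Its groups overlapped throughout, with differences of 0.025 (95% interval −0.066 to 0.12) and 0.018 (−0.073 to 0.11). The SOCS1, SOCS2 and SOCS3 values lie in the range where HL-60 values are compressed, so changes there may be understated.

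Counted together, 4 of the 10 genes were called with DAC in HL-60, 3 higher and 1 lower, against 24.2% of all 17046 genes tested (11.6% higher, 12.6% lower). That count was 2 without DMSO replicate 2 and 1, STAT5A alone, without DAC replicate 3. With NTX-301, 7 were called, 5 higher and 2 lower, against 37.4% of all genes (18.3% higher, 19.2% lower). The direct comparison of NTX-301 with DAC called 6, of which 4 were higher and 2 lower, against 30.4% of all genes (15.4% higher, 15% lower). Values of the compared groups were fully separate for 6, 8 and 7 of the 10 genes in these contrasts, against 38.5%, 47.2% and 44.4% of all genes. The median log2 difference over the 10 genes was 0.055 with DAC and 0.084 with NTX-301, beside 0.001 and 0.001 over all genes. Both drug contrasts use the same DMSO samples. Lineage markers moved in the same samples. The granulocytic markers, 8 of 8 listed, summed to a linear value of 534393 to 568108 with DMSO, 533296 to 534916 with DAC and 414799 to 424835 with NTX-301, sums that rest largely on MPO. Singly, 4 were higher and 2 lower with DAC, among them RNASE2 (0.65), AZU1 (0.20) and MPO, whose value of −0.069 was −0.16 after quantile normalization and lost its call in 4 alternatives. With NTX-301, 2 were higher and 5 lower, among them PRTN3 (−0.76), ELANE (−0.48) and MPO (−0.35). After quantile normalization the MPO difference with NTX-301 was 0. That method gives genes of equal rank the same value, so for a gene this high the 0 does not measure its change. The other alternatives kept the call. The 6 listed monocytic markers summed to 12499 to 12584 with DMSO, 13955 to 14358 with DAC and 11356 to 11451 with NTX-301. Those sums rest largely on CD4 and LYZ. Of these markers, 3 were higher with DAC. With NTX-301, 3 were higher, CD86 (0.52), ITGAM (0.43) and CSF1R (0.42), and 2 lower, CD4 (−0.23) and LYZ (−0.072), the call of LYZ being lost in 9 alternatives. Of the 2 listed markers of other lineages, 1 was higher with DAC, NKG7 (0.17). With NTX-301, 2 were higher, CD79A (0.39) and NKG7 (0.34), and 0 were lower with either drug. The part of all these markers in the member differences was not tested.

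In MOLM-13, where FLT3-ITD is present, SOCS2 held the largest called difference among the 10 genes relative to its error, and it fell. It was 13.24, 13.27 and 13.27 with DMSO, 12.92, 12.84 and 12.84 with DAC and 13.12, 13.05 and 13.06 with NTX-301. The groups did not overlap, and lay in the order DAC, NTX-301, DMSO. DAC lowered it (−0.39, SE 0.028, limma adjusted p 2.43e-06), a ratio of 0.761, as did NTX-301 (−0.18, adjusted p 0.000272). The NTX-301 value shrank to −0.077 after quantile normalization and was still called. It was the 1 gene of the 10 called between the drugs in this line, higher with NTX-301 by 0.21 (SE 0.028, adjusted p 0.00190). SOCS2-AS1, a transcript from the other strand whose exons overlap those of SOCS2, was listed in MOLM-13 at a mean of 6.65 with DMSO, 6.61 with DAC and 6.71 with NTX-301, and was not called (adjusted p 0.705 and 0.497). Whether the counting used strand is not given in the sources used here, so reads of the pair may not be separated.

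The other feedback genes in MOLM-13 rose or did not pass the test. SOCS1 was 7.20, 7.25 and 7.26 with DMSO, 7.51, 7.55 and 7.49 with DAC and 7.68, 7.55 and 7.62 with NTX-301, each drug sample above each DMSO sample. The rise was 0.28 for DAC (SE 0.052, adjusted p 0.00130), or 0.18 after quantile normalization, and 0.38 for NTX-301 (adjusted p 0.000110). SOCS3, which binds the receptors of the gp130 family and of G-CSF, was 10.72, 10.61 and 11.18 with DMSO, 11.22, 11.29 and 11.34 with DAC and 11.16, 11.05 and 11.14 with NTX-301. The DMSO samples were spread over more than the drug samples, and DMSO replicate 3 lay above all 3 NTX-301 samples. SOCS3 rose with DAC by 0.44 (SE 0.11, adjusted p 0.00754). With NTX-301 its difference was 0.28 (SE 0.11, adjusted p 0.0588), which was 0.45 and called without DMSO replicate 3 (adjusted p 8.1e-05) and 0.16 without DMSO replicate 2 (adjusted p 0.234). It was also called after centring (0.25, adjusted p 0.0439), with a stricter filter on low genes (adjusted p 0.0248) and with the replicate block (adjusted p 0.0312). CISH was 11.20, 11.12 and 11.14 with DMSO, 11.35, 11.25 and 11.28 with DAC and 11.26, 11.16 and 11.23 with NTX-301. It rose with DAC by 0.14 (SE 0.038, adjusted p 0.0136), a call lost after centring (0.10) and without DMSO replicate 2 (0.12), and with NTX-301 it was at 0.063 (adjusted p 0.203).

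PIM1 rose with both drugs in MOLM-13. It was 12.20, 12.25 and 12.35 with DMSO, 12.55, 12.53 and 12.55 with DAC and 12.65, 12.60 and 12.62 with NTX-301, in groups that did not overlap. It gained 0.28 under DAC (SE 0.034, adjusted p 8.20e-05) and 0.35 under NTX-301 (adjusted p 1.02e-05), and the drugs were not called apart (0.074, 95% interval −0.0009 to 0.15). PIM3 was 11.19, 11.17 and 11.06 with DMSO and 10.94, 10.89 and 10.79 with NTX-301, a fall (−0.26, SE 0.048, adjusted p 0.000867). With DAC, at 10.97, 11.08 and 11.01, PIM3 overlapped DMSO (−0.12, adjusted p 0.0789), although the value was called after centring (−0.15) and without DMSO replicate 3 (−0.16). PIM2 lay between 11.20 and 11.33 in all 9 samples and was not called (−0.0020 with DAC and 0.024 with NTX-301).

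Of the STAT5 messages in MOLM-13, STAT5A was called with DAC and STAT5B with neither drug. STAT5A was 12.01, 12.01 and 11.95 with DMSO, 12.11, 12.14 and 12.10 with DAC and 12.01, 12.04 and 12.05 with NTX-301. It rose with DAC by 0.12 (SE 0.026, adjusted p 0.00336). With NTX-301 it was at 0.039 (adjusted p 0.245), a value that became 0.11 and was called after quantile normalization. STAT5B lay between 12.35 and 12.41 in all 9 samples, with differences of −0.0077 (95% interval −0.061 to 0.045) and −0.026 (−0.079 to 0.027). BCL6 was 8.81, 8.93 and 8.87 with DMSO, 8.998, 8.84 and 9.06 with DAC and 9.01, 9.06 and 9.07 with NTX-301. It rose with NTX-301 by 0.17 (SE 0.059, adjusted p 0.0310). That call was lost after centring (0.14), after quantile normalization (0.083) and without DMSO replicate 1 (0.15), DMSO replicate 3 (0.17), NTX-301 replicate 2 (0.17) or NTX-301 replicate 3 (0.16). With DAC its samples overlapped DMSO (0.096, adjusted p 0.234). That value was 0.16 and called without DAC replicate 2 (adjusted p 0.0491), 0.050 without DAC replicate 3, and 0.059 and 0.015 after centring and quantile normalization.

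**Figure D3:**
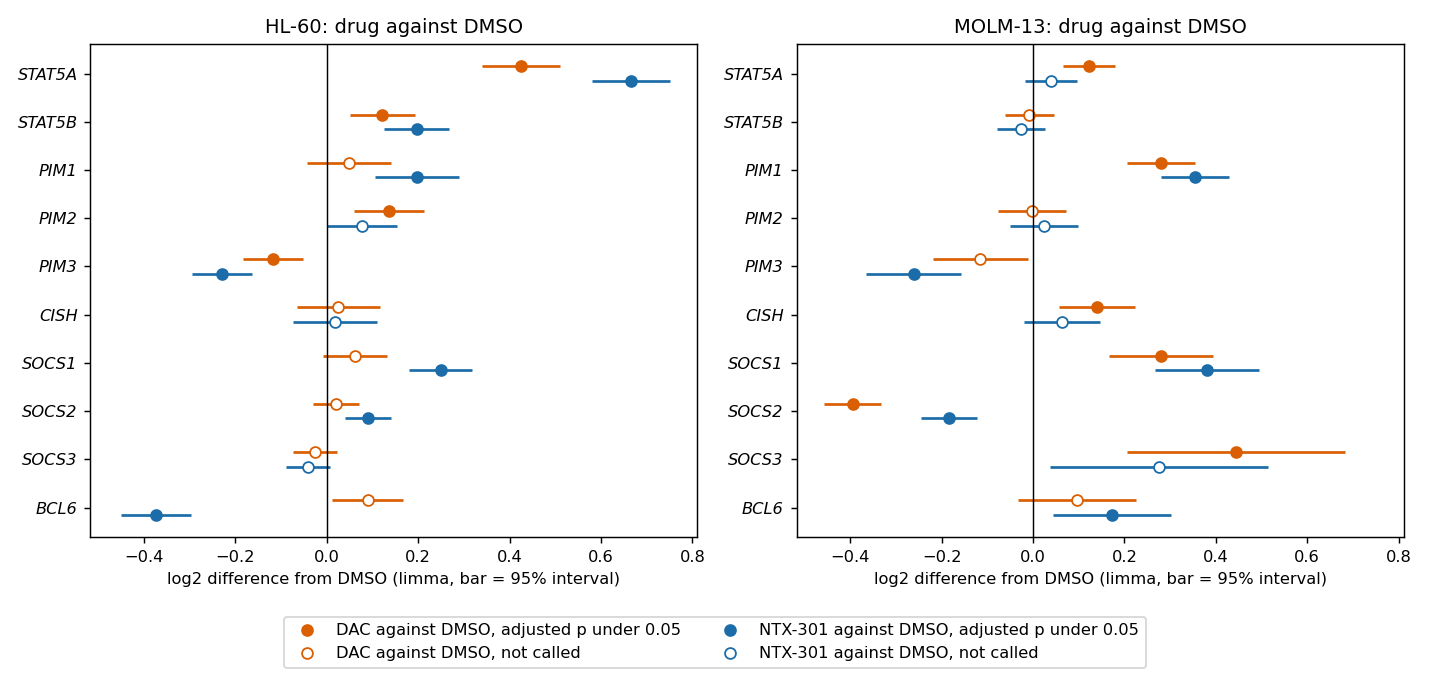
Log2 difference of each drug from DMSO (x axis) for the 10 genes (y axis) in HL-60 (left) and MOLM-13 (right), with 95% intervals from limma. Filled points have an adjusted p-value under 0.05. STAT5A in HL-60 reaches 0.67 with NTX-301, and SOCS2 in MOLM-13 reaches −0.39 with DAC.

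In MOLM-13, DAC called 6 of the 10 genes, 5 higher and 1 lower, against 36.6% of all 17475 genes (15.4% higher, 21.2% lower). NTX-301 called 5, 3 higher and 2 lower, against 45.1% (20.3% higher, 24.8% lower), so that its share lay near that of all genes. Between the drugs 1 of 10 was called, higher, against 7.42% of all genes (3.01% higher, 4.41% lower). The groups did not overlap for 6, 7 and 6 genes in these contrasts, against 47.9%, 55.8% and 27.3% of all genes. The median log2 difference over the 10 genes was 0.11 with DAC and 0.051 with NTX-301, beside 0.001 and 0.003 over all genes. Both contrasts share the DMSO samples. The monocytic markers, 8 of 9 listed and CD14 not, summed to a linear value of 120137 to 127013 with DMSO, 184944 to 197606 with DAC and 126336 to 131591 with NTX-301, sums that rest largely on LYZ. Singly, 5 were higher and 1 lower with DAC, and 5 higher and 2 lower with NTX-301. CD86 rose by 0.86 with DAC and 0.74 with NTX-301, ITGAM by 0.64 and 0.71, CSF1R by 0.51 and 0.39 and CD4 by 0.39 and 0.29, while IRF8 was lower (−0.22, or −0.12 after quantile normalization, and −0.46). The 8 granulocytic markers summed to 210955 to 219423 with DMSO, 228065 to 250751 with DAC and 209308 to 228393 with NTX-301. Of these, 4 were higher and 1 lower with DAC, MPO (0.72) and CEBPE (0.66) among the higher, and 3 higher and 1 lower with NTX-301. The 5 KMT2A programme genes summed to 56680 to 59307 with DMSO, 48775 to 50236 with DAC and 53238 to 53652 with NTX-301. Those sums rest largely on FLT3. Of these genes, 4 were lower with DAC, and 2 were higher and 2 lower with NTX-301. Of the 5 listed markers of other lineages, 2 were higher with DAC and 3 with NTX-301, and 0 were lower with either drug. The part of all these markers in the member differences was not tested. In bulk RNA a change in the number of cells of a type and in the RNA per cell cannot be told apart.

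Whether a drug moved a gene differently in the 2 lines was tested on the drug effects themselves, subtracting the HL-60 value from the MOLM-13 value. With NTX-301 the STAT5A rise seen in HL-60 was smaller in MOLM-13 by 0.63 (−0.63, SE 0.047, limma adjusted p 6.50e-09), and BCL6, which fell in HL-60, differed by 0.55 (SE 0.068, adjusted p 3.71e-06). With DAC, SOCS2 differed by −0.41 (SE 0.051, adjusted p 5.98e-06), SOCS3 by 0.47 (SE 0.13, adjusted p 0.00920) and STAT5A by −0.30 (adjusted p 6.68e-05). For PIM1 the MOLM-13 effect was larger, by 0.23 for DAC (adjusted p 0.00492) and by 0.16 for NTX-301 (adjusted p 0.0363). The NTX-301 call of PIM1 was lost on omitting any of 8 samples (0.12 to 0.16), namely HL-60 DMSO replicates 1 and 2, HL-60 NTX-301 replicates 1 and 2, MOLM-13 DMSO replicates 1 and 2, and MOLM-13 NTX-301 replicates 1 and 3. After quantile normalization it was 0.31 and called. SOCS2 differed by −0.27 for NTX-301 (adjusted p 0.000270), or by −0.14 after quantile normalization. SOCS1 differed by 0.22 for DAC (adjusted p 0.00572), but was not called under quantile normalization (0.13). STAT5B differed by −0.13 for DAC (adjusted p 0.0244). It lost that call under quantile normalization (−0.080) and without HL-60 DMSO replicate 2 (−0.094), HL-60 DAC replicate 3 (−0.10), MOLM-13 DMSO replicate 2 (−0.12) or MOLM-13 DAC replicate 2 (−0.11). PIM3 was not called, with a difference of 0.0020 for DAC (95% interval −0.12 to 0.13) and −0.032 for NTX-301 (−0.16 to 0.091). In HL-60, SOCS2 lay at 5.09 to 5.23, SOCS3 at 4.93 to 5.01 and SOCS1 at 5.26 to 5.57, where values are compressed. The part of that compression in the differences of these genes between the lines was not tested. Of the 10 genes, 7 were called for DAC, 3 higher in MOLM-13 and 4 lower, against 30% of all 15474 genes (12.1% higher, 17.9% lower), and 5 for NTX-301, 2 higher and 3 lower, against 40% (17.6% higher, 22.4% lower).

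**Figure D4:**
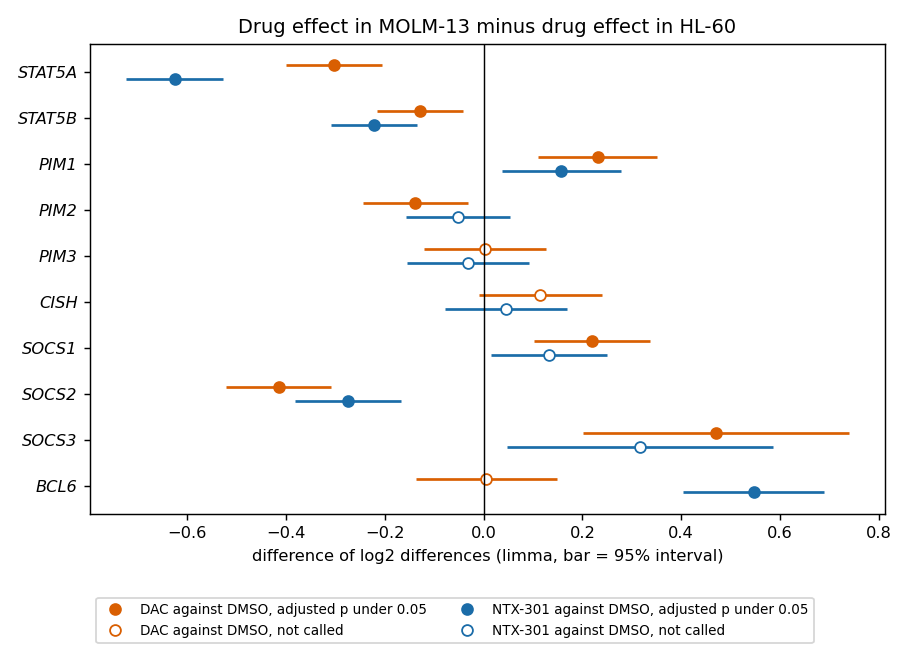
Drug effect in MOLM-13 minus drug effect in HL-60 on the log2 scale (x axis) for the 10 genes (y axis), with 95% intervals from limma. Filled points have an adjusted p-value under 0.05. STAT5A with NTX-301 lies lowest at −0.63 and BCL6 with NTX-301 highest at 0.55.

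The rest of the pathway was followed through 7 lists, whose counts stand beside the shares of all genes called: with DAC 24.2% in HL-60 and 36.6% in MOLM-13, with NTX-301 37.4% and 45.1%. Where a gene outside the 3 of lowest adjusted p in its list is named for the other drug or line, it was added after its values were seen. Upstream, FLT3 itself fell in MOLM-13, with −0.29 for DAC (SE 0.025, limma adjusted p 7.58e-06) and −0.21 for NTX-301 (adjusted p 4.65e-05). After quantile normalization these were −0.19 and −0.075 and still called. In HL-60 FLT3 was at −0.088 with DAC (adjusted p 0.0436), a call lost in 9 alternatives, and at −0.075 with NTX-301 (adjusted p 0.0606), which 5 alternatives called. The adaptor GAB2, which links receptors to SHP2 and PI3 kinase, rose in HL-60 by 0.42 under DAC and 0.62 under NTX-301 and in MOLM-13 by 0.20 under NTX-301 (adjusted p 5.48e-06, 4.67e-08 and 2.98e-05). Under DAC in MOLM-13 it was at 0.047 (adjusted p 0.134), or 0.10 and called after quantile normalization. JAK3 rose in MOLM-13 by 0.31 under DAC and 0.42 under NTX-301 (adjusted p 0.00244 and 0.000249). PTPN11, which encodes SHP2, fell in MOLM-13 by 0.14 under DAC, a call lost after quantile normalization (−0.049), and by 0.24 under NTX-301 (−0.12 after it). In HL-60 it fell under NTX-301 by 0.14 (−0.085 after it) and was at −0.040 under DAC. Of the receptor kinase, JAK and adaptor list, 2 of 11 rose and 2 fell with DAC in HL-60, and 2 rose and 4 fell with NTX-301. In MOLM-13, 2 of 12 rose and 4 fell with DAC, and 3 rose and 5 fell with NTX-301.

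Of the 5 other STAT genes, 4 were listed. With NTX-301 in HL-60, 3 rose and 1 fell: STAT2 rose by 0.27 (adjusted p 2.29e-06), STAT3 rose by 0.23 (adjusted p 5.67e-06), and STAT6, the IL-4 responsive member, fell by 0.26 (adjusted p 5.90e-07). With DAC there, STAT6 alone was called and fell by 0.14. In MOLM-13, 3 of 4 rose with either drug, among them STAT6 by 0.14 and 0.12 and STAT2 by 0.16 and 0.22. Of the other SOCS genes, 0 of 4 were called with DAC in either line by limma, and 0 had an unadjusted p under 0.05. After centring 1 was called in MOLM-13. SOCS7 fell with NTX-301 in HL-60 by 0.16, and SOCS4 and SOCS7 fell with NTX-301 in MOLM-13, by 0.16 and 0.12.

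Among 10 other negative regulators, 2 rose and 1 fell with DAC in HL-60, and 2 rose and 3 fell with NTX-301. CBL, a ubiquitin ligase that removes activated FLT3, fell with NTX-301 in HL-60 by 0.34 (adjusted p 1.28e-07) and rose with DAC in MOLM-13 by 0.10, the latter call being lost after centring (0.068). NTX-301 in that line gave 0.083, a call lost after centring (0.053) and without DMSO replicate 2 or 3 or NTX-301 replicate 2 or 3. Quantile normalization gave 0.19 with both drugs. PTPN6, the phosphatase SHP1, fell with NTX-301 in HL-60 by 0.21, and the JAK adaptor inhibitor SH2B3 rose there by 0.13 with DAC and 0.27 with NTX-301. In MOLM-13 SH2B3 fell with NTX-301 by 0.13, a call lost after quantile normalization (−0.065). In MOLM-13, 3 rose and 2 fell with DAC, and 4 rose and 2 fell with NTX-301. PIAS2 had the lowest adjusted p and rose by 0.17 and 0.22, and CBLB rose by 0.18 and 0.34 (adjusted p 0.0260 and 0.000411), the DAC call of CBLB being lost after quantile normalization (0.14), when fitted on those groups alone (adjusted p 0.0503), and without DMSO replicate 1 (0.17), DMSO replicate 2 (0.16) or DAC replicate 3 (0.11).

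Other genes known as STAT5 targets moved in both directions. CCND2, which encodes cyclin D2, rose in all 4 contrasts against DMSO. In HL-60 it gained 0.42 under DAC and 0.39 under NTX-301, and the MOLM-13 gains were 0.20 and 0.16 (adjusted p 1.94e-08, 2.40e-08, 0.000326 and 0.00106). CCND3 rose in HL-60 by 0.15 and 0.60. In MOLM-13 it fell by 0.11 and 0.13, calls that were lost after quantile normalization (−0.021 and −0.014). The survival gene MCL1 fell in HL-60, by 0.14 under DAC and by 0.39 under NTX-301 (adjusted p 0.000228 and 7.51e-09). In MOLM-13 it was at 0.0057 with DAC, or 0.11 and called after quantile normalization. With NTX-301 it was at −0.089 (adjusted p 0.0369), which quantile normalization turned to 0.044 and which lost its call without the mean-variance trend and without DMSO replicate 2 (−0.097), DMSO replicate 3 (−0.052), NTX-301 replicate 2 (−0.085) or NTX-301 replicate 3 (−0.081). Of the listed targets in HL-60, 3 of 8 rose and 1 fell with DAC, and 5 rose and 3 fell with NTX-301. In MOLM-13, 5 of 9 rose and 2 fell with DAC, and 5 rose and 3 fell with NTX-301. After quantile normalization the called genes there numbered 4 with DAC and 1 with NTX-301.

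Of 6 PIM substrates, CDC25A, a cell cycle phosphatase, rose in HL-60 by 0.12 and 0.14 and fell in MOLM-13 by 0.38 and 0.54 (DAC first, adjusted p 0.000971, 7.84e-05, 7.59e-05 and 4.63e-06). CDKN1B, the cell cycle inhibitor p27, rose with NTX-301 in HL-60 by 0.23. The list counts were 1 higher and 1 lower with DAC and 2 and 1 with NTX-301 in HL-60, and 0 and 1, and 1 and 1, in MOLM-13. Of the 3 BCL6 corepressors, BCOR rose with DAC in HL-60 by 0.080, a call lost without DMSO replicate 1 (0.070), DMSO replicate 2 (0.082) or DAC replicate 2 (0.072). With NTX-301 there, limma called 0 of 3, with 1 at an unadjusted p under 0.05 and 2 called after quantile normalization. In MOLM-13, NCOR1 rose by 0.090 and BCOR by 0.072 with NTX-301. After centring NCOR1 and BCOR lost that call (0.060 and 0.042), as they did when single samples were omitted, in 3 cases for NCOR1 and 4 for BCOR.

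**Figure D5:**
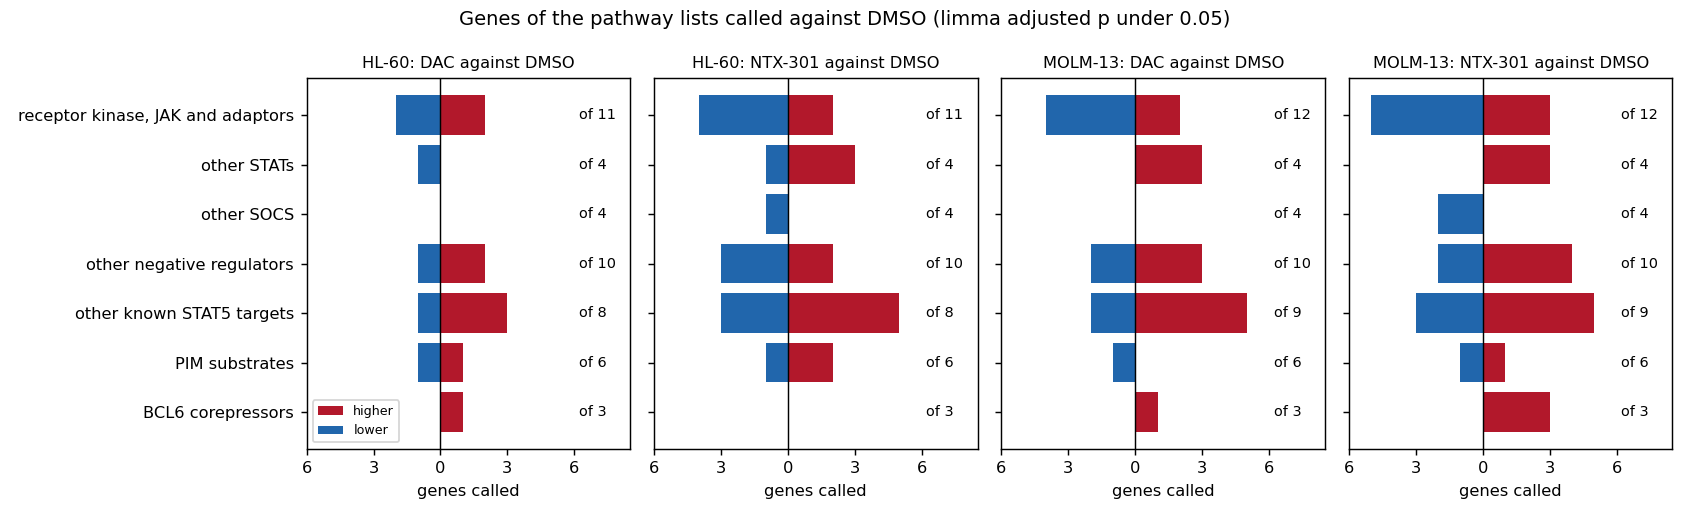
Number of genes called higher (red, to the right) and lower (blue, to the left) against DMSO at a limma adjusted p-value under 0.05 (x axis) in 7 pathway lists (y axis), with 1 panel for each line and drug and the number tested at the right of each row. Rises and falls occur side by side in most lists.

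Among the 15473 other genes tested in both lines, those whose 4 differences from DMSO lay closest to those of STAT5A, the member with the largest root mean square over the 4 (0.40), were FZD7, OGDHL and PCDHGC3. Their root mean square distances were 0.045, 0.056 and 0.058 on the log2 scale. FZD7, a Wnt receptor, differed by 0.44 with DAC and 0.60 with NTX-301 in HL-60 and by 0.077 and 0.0040 in MOLM-13. This ranking describes 4 differences per gene, and each pair of differences shares its DMSO samples.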

How the data were processed

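The authors deposited normalized log2 values, 1 per gene and sample. The unit was read from the values, and the method that made them is not given in the sources used here. FastQC, Trimmomatic 0.38, HISAT2, StringTie and the build hg19 are named in the submitters' processing notes. Annotation version and strand setting are not given in the sources used here. Depth per sample is unknown, so precision rests on the replicates.

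A two-sided limma test (version 3.58.1, R 4.3.3; lmFit and eBayes, trend on) was fitted to the 9 samples of a line, or to all 18 for the difference between lines. Genes entered when 3 or more samples had a linear value of 1 or more, and Benjamini-Hochberg adjustment covered every such gene, with a threshold of 0.05. The steps were tested on simulated data. All 10 genes passed that filter in both lines.

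The genes, the 7 pathway lists and the marker lists were chosen with earlier results of these data known. All 10 genes are named, with at most 3 called genes per list and contrast, besides lineage markers and 7 list genes followed across drugs and lines, both added after their values were seen; the genes most similar to STAT5A follow a distance rule. SOCS2-AS1 was added because its exons overlap those of SOCS2. Exons of BCL6 also overlap those of AC072022.1 and AC072022.2 on the other strand, which were listed in neither line. Whether reads of these were counted for BCL6 was not tested. RMI2 and MAPKAPK3 overlap SOCS1 and CISH on the other strand without shared exons and were listed in both lines. With NTX-301, RMI2 rose by 0.14 in HL-60 and fell in MOLM-13 (−0.21, limma adjusted p 0.0192). MAPKAPK3 fell with NTX-301 in HL-60 (−0.27, adjusted p 1.15e-07) and in MOLM-13 (−0.10, adjusted p 0.0156). Whether their reads were counted for SOCS1 or CISH was not tested. Same-numbered samples did not deviate together (correlations −0.059 to 0.12 in HL-60 and −0.16 to 0.11 in MOLM-13), so the numbers were not taken as pairs. Alternatives were 2 scalings, 2 filters, no trend, only the groups compared, the replicate block and leaving out each sample. Sequences are from RefSeq, GRCh38.p14. Some items of the lists are not reported here.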

Additional observations from a re-analysis of the deposited data

Results flagged for a closer look

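The drug effect on a member differed between the lines, by the limma test of the difference itself, in 12 of 20 cases. That was 7 of 10 for DAC, against 30% of all genes tested, and 5 of 10 for NTX-301, near the 40% of all genes. The log2 values below are positive where the MOLM-13 effect exceeded the HL-60 effect. For DAC they were −0.30 for STAT5A, −0.13 for STAT5B, 0.23 for PIM1, −0.14 for PIM2, 0.22 for SOCS1, −0.41 for SOCS2 and 0.47 for SOCS3. For NTX-301 they were −0.63 for STAT5A, −0.22 for STAT5B, 0.16 for PIM1, −0.27 for SOCS2 and 0.55 for BCL6. PIM2 with DAC was the least stable, its call being lost in 15 of the alternatives. PIM1 with NTX-301 lost its call in 8, STAT5B with DAC in 5 and SOCS1 with DAC in 1. The line and the stated dose cannot be told apart.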

How the results depend on the processing

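Of 763 recomputed values for member differences that were called, 706 kept their direction and call, 57 lost the call and 0 changed direction. Of 692 recomputed values for differences that were not called, 21 became called and 32 changed sign. The number of members called with DAC in HL-60 ranged from 1 to 4 with 1 sample left out, and NTX-301 against DAC in MOLM-13 called 2 members when fitted on those groups alone. Changes of sign after quantile normalization were PIM1 with DAC in HL-60 (−0.0029), CISH with NTX-301 in HL-60 (−0.031), STAT5B with DAC (0.053) and NTX-301 (0.046) and PIM2 with DAC (0.026) in MOLM-13, and the between-line BCL6 difference with DAC (−0.050). After centring they were CISH with NTX-301 in HL-60 (−0.014), PIM2 with NTX-301 in MOLM-13 (−0.0056) and the between-line differences with DAC of PIM3 (−0.037) and BCL6 (−0.034). With 1 sample left out the ranges that crossed 0 were, in HL-60, CISH with NTX-301 against DMSO (−0.015 to 0.047) and against DAC (−0.040 to 0.021), and in MOLM-13, STAT5B (−0.020 to 0.010) and PIM2 (−0.035 to 0.032) with DAC and PIM2 with NTX-301 against DAC (−0.0075 to 0.060). Between the lines they were PIM3 (−0.039 to 0.029) and BCL6 (−0.040 to 0.067) with DAC and PIM3 with NTX-301 (−0.073 to 0.0090). Among the markers and list genes added later, quantile normalization changed the sign of ITGAM with DAC (−0.017) and took MPO with NTX-301 to 0 in HL-60, and in MOLM-13 changed that of SH2B3 with DAC (0.034) and of MCL1 (0.044), RNASE2 (0.030), MPO (0.014) and PRTN3 (0.0064) with NTX-301. The method sets values by rank, so the 0 of MPO does not measure its change. Centring changed that of MCL1 with DAC there (−0.031). Leaving out 1 sample, the DAC values spanned −0.0079 to 0.094 for ELANE and −0.046 to 0.042 for ITGAM (HL-60), and −0.028 to 0.0070 for SH2B3 and −0.023 to 0.043 for MCL1 (MOLM-13). The cause was not tested. The replicate block kept 76 of 80 member results: SOCS2 between the drugs in HL-60 (adjusted p 0.0502) and PIM2 with DAC between lines (0.0731) lost their call, and SOCS3 with NTX-301 gained it in MOLM-13 (0.0312) and between lines (0.0357). With the block, members called numbered 4, 7 and 5 for HL-60, 6, 6 and 1 for MOLM-13 and 6 and 6 between lines. All genes called between the drugs in MOLM-13 fell from 1297 to 817 with the block and to 462 without NTX-301 replicate 3. List counts, of at most 12 genes each, moved by more than 1.5 times in 47 of 448 recomputed values, for example other STAT genes with DAC in HL-60, from 1 to 4 after quantile normalization. The median of all genes in the drug against DMSO contrasts lay between −0.036 and 0.003 under any scaling. Single genes moved further in either direction with quantile normalization. In MOLM-13, SOCS2 with NTX-301 went from −0.18 to −0.077 and SOCS1 with DAC from 0.28 to 0.18. Low genes such as SOCS1 to SOCS3 in HL-60 are limited by the compression of the values.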
